A study of Mus musculus with 3 samples.

Results

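The genes described here are 7 members of sterol metabolism, chosen as a list of cholesterol synthesis and sterol regulator genes, out of 22238 genes measured in all 3 libraries of the series. They are Hmgcs1, Idi1, Fdps, Sqle and Cyp51, which encode enzymes of cholesterol synthesis, Srebf2, which encodes the transcription factor SREBP-2, and Ch25h, which encodes cholesterol 25-hydroxylase. RNA was sequenced from 3 populations sorted from female mice on a C57BL/6J background, wild type by the sample titles and 10 to 12 weeks old. All had been immunized with a myelin oligodendrocyte glycoprotein peptide in complete Freund's adjuvant and given 250 ng of pertussis toxin at 2 and 24 hours. This induces experimental autoimmune encephalomyelitis (EAE), a mouse model of multiple sclerosis, and cells were taken at days 14 to 15, at peak disease. Bone marrow monocytes, positive for CD45 and CD11b, high in Ly6C and negative for Ly6G and CD11c, were pooled from 13 mice of 2 experiments after enrichment with a monocyte kit. Spinal cord monocytes, positive for CD45, CD11b and CD64, high in Ly6C and negative for Ly6G, came from 18 mice of 3 experiments, as did the monocyte-derived antigen-presenting cells (APCs) of the cord, which had low or no Ly6C in an otherwise like gate. Values given as a run of 3 stand in the order marrow monocytes, cord monocytes, APCs, and the first step is the one from marrow to cord monocytes and the second that from cord monocytes to APCs. No cells of unimmunized mice were analysed here, and the gates and dissociation differed between the bone marrow and the spinal cord. Each population was 1 pooled library, so no difference has a replicate check, no p-value is given, and every interval covers counting error only.

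Cholesterol is built from acetyl-CoA through mevalonate and isoprenoid intermediates (the mevalonate arm) to squalene, which is then oxidized, cyclized and trimmed (the sterol arm). When sterols in the endoplasmic reticulum are low, SCAP carries SREBP-2 to the Golgi, where proteases release the fragment that switches on the genes of the synthesis enzymes. INSIG proteins hold SCAP back when sterols are plentiful, and 25-hydroxycholesterol, the product of the Ch25h enzyme, acts through them. Oxysterols also activate the LXR receptors, which drive cholesterol efflux. In macrophages Ch25h is known as an inflammatory and interferon-induced gene.

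SREBP proteins bind sterol regulatory elements near the start of their target genes, often beside NF-Y sites, so the promoters of 3 members are shown, those with a sterol regulatory element match and that of Cyp51, the called enzyme. They are the 250 bases before the RefSeq start on GRCm38.p6, read 5′ to 3′ on the gene's strand, and cover chr13:119690101-119690350 (plus strand) for Hmgcs1, chr15:82147019-82147268 (plus strand) for Srebf2 and chr5:4104698-4104947 (minus strand) for Cyp51. Capitals mark matches on either strand to TCACNCCA, a form of the sterol regulatory element, and to CCAAT, the NF-Y motif, which reads ATTGG on the other strand.
Hmgcs1: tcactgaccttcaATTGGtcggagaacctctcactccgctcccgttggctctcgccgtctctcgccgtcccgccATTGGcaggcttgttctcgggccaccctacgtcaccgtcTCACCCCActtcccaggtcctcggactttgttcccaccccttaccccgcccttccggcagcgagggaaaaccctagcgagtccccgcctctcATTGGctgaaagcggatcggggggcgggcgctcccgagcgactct
Srebf2: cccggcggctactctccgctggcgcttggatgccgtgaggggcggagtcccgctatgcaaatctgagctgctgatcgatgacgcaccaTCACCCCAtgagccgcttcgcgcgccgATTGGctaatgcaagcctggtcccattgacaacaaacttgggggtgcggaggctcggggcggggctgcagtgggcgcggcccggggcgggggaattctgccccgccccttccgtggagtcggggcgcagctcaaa
Cyp51: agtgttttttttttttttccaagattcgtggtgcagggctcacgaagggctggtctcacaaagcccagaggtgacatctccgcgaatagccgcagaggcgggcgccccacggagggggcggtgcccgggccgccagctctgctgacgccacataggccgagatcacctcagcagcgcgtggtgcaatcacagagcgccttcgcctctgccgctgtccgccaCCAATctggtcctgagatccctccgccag

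RefSeq promoters were found for 5 of the 7 members, and those of Sqle and Fdps were not matched. This form of the sterol regulatory element was matched in Hmgcs1, from 137 to 130 bases before the start. In Srebf2 it was matched from 162 to 155 bases before the start, in both genes as TCACCCCA. It was matched in 3.67% of all 32851 promoters of this length, and CCAAT in 33.8%. Cyp51 held CCAAT at 29 to 25 bases before its RefSeq start, Hmgcs1 held it 3 times and Srebf2 once, and none of these overlapped a TCACNCCA match. In the GENCODE annotation Srebf2 and Cyp51 start inside these windows, and the CCAAT of Cyp51 lies within the annotated gene. All the matches given are of letters within 250 bases, not measured binding. Other forms of the sterol regulatory element were not searched, so the lack of a TCACNCCA match in Cyp51 does not show that the element is absent.

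The libraries held between 27283795 and 33280643 estimated reads. APCs were quantified on a different transcript set (22242 genes listed, against 54432 for each monocyte library), so the 22238 shared genes were compared, and TPM, a share of transcripts per length, was rescaled to an equal sum across these genes. Fold changes are log2 ratios of reads scaled by median-of-ratios size factors, with a 98% interval. A gene was active when its TPM was over 3 in 1 of the 2 libraries, and was called when its interval lay beyond a 2-fold change. Markers of the sorted cells were abundant, and those of other cell types were present at lower or uneven levels. Summed over a marker list, TPM was 10339, 8889 and 3488 for 6 monocyte genes, 142.3, 3925 and 9863 for 4 APC genes and 12.8, 85.0 and 222.8 for 5 microglia genes. It was 0.109, 44.1 and 68.1 for 5 T cell genes, 7243, 1070 and 1150 for 8 neutrophil genes, 17.1, 71.5 and 43.1 for 4 endothelial genes, 102.9, 77.3 and 74.8 for 6 oligodendrocyte genes, 3.01, 9.998 and 9.69 for 4 astrocyte genes, and between 0.159 and 1.01 for 4 B cell and 4 neuron genes. For 6 CNS macrophage genes it was 15.7, 36.8 and 51.1 and for 5 cDC genes 40.7, 20.9 and 27.0. Of the cDC genes, Flt3 was at 37.8, 3.65 and 6.65 TPM, while Zbtb46, Batf3, Itgae and Clec9a were higher in both cord libraries than in the marrow. All 7 active neutrophil genes had negative log2 fold changes in the first step. In the second, 4 were positive and 2 negative, with Ngp at 24.3 and then 156.8 TPM. Of the defining markers, Sall1, Cd3g, Cd4, Trac, Pax5, Mog, Aqp4 and Cldn5 had 0 reads in bone marrow monocytes, and Lyve1 had 0, 2 and 0 reads. In bulk samples, more cells of a type and more RNA per cell cannot be told apart. The part of these cell types in the values of the sterol genes was not tested.

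From bone marrow to spinal cord monocytes, 2 of the 7 members rose and none fell. Cyp51, the lanosterol demethylase, rose 4.04-fold and Ch25h went from 0 reads to 169. Hmgcs1, Idi1, Sqle and Srebf2 had positive log2 fold changes between 0.39 and 1.09 that were not called, and Fdps was at -0.04. From spinal cord monocytes to APCs, 0 of the 7 members were called, and all 7 had negative log2 fold changes between -0.64 and -0.07. Over all active genes, 13.8% were called higher and 10.7% lower in the first step, and 1.93% higher and 1.7% lower in the second. The median log2 fold change of the members was 0.53 in the first step, against -0.15 over all 10072 active genes, and -0.43 in the second, against -0.04 over all 9734 active genes. The members were chosen with earlier results of these data known, so these contrasts are not independent of the choice. With TPM ratios in place of scaled reads, the median of all genes moved by -0.26 in the first step. Over all alternatives the lowest first-step value was 0.16 for Hmgcs1, 0.18 for Idi1, 0.69 for Sqle, 1.75 for Cyp51, 0.20 for Srebf2 and -0.36 for Fdps, and 3.15 for Ch25h, with TPM ratios at a pseudocount of 1.

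**Figure D1:**
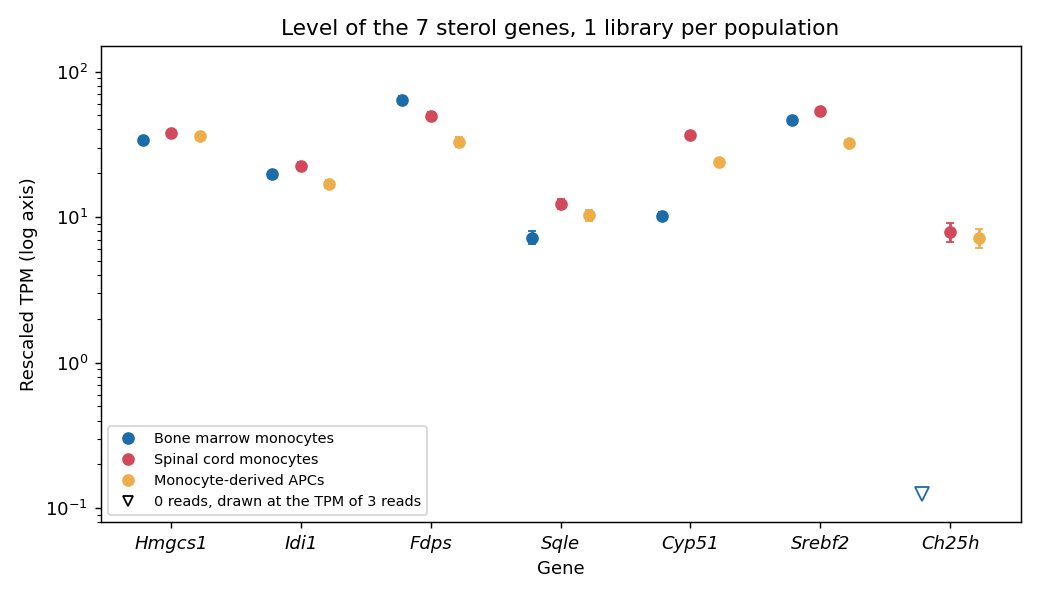
Level of the 7 genes in each library, as rescaled TPM on a log axis with 95% Wilson intervals of counting error (1 library per point). Cyp51 stands at 10.2, 36.6 and 23.8 TPM in marrow monocytes, cord monocytes and APCs, and Ch25h, at 0 reads in the marrow, is drawn there as an open triangle at the 0.124 TPM that 3 reads would give.

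In the mevalonate arm, Hmgcs1 (ENSMUSG00000093930.2, chr13:119690379-119708260 on GRCm38) encodes the cytosolic HMG-CoA synthase, which makes HMG-CoA from acetoacetyl-CoA. Its reads numbered 2000, 2069 and 2199, or 34.0, 38.1 and 36.0 TPM. The 3 libraries were within a narrow band, with log2 fold changes of 0.53 (0.43 to 0.64, 98% interval) in the first step and -0.07 (-0.17 to 0.03) in the second. Divided by effective length, the second was 0.002, so the sign of the Hmgcs1 difference between spinal cord monocytes and APCs depended on the scaling.

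Idi1 (ENSMUSG00000058258.14, chr13:8885501-8892451) encodes the isomerase that interconverts the pair of 5-carbon isoprenoid units. Its reads were 1076, 1109 and 906, or 19.6, 22.4 and 16.9 TPM. On TPM, spinal cord monocytes were the highest of the 3 and APCs the lowest. On scaled reads the log2 fold change was 0.53 (0.38 to 0.67, 98% interval) and then -0.45 (-0.60 to -0.30). APCs against bone marrow monocytes stood at 0.08 (-0.07 to 0.23) on scaled reads, so APCs were not the lowest there. Idi1 shares 17.7% of its 50-base stretches with the processed pseudogene Gm13502, which had 19 reads in marrow and 50 in cord monocytes and was not listed in the APC values, so a few of its reads could be split.

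Fdps (ENSMUSG00000059743.12, chr3:89093588-89101959) encodes farnesyl diphosphate synthase, whose product goes to sterols and to protein prenylation. It had 1347, 935 and 671 reads, or 63.9, 49.7 and 32.8 TPM, and was the most abundant member in bone marrow monocytes. Fdps was the one member whose TPM was highest in the bone marrow and lower in each later population. On reads it differed by -0.04 (-0.19 to 0.10, 98% interval) on the log2 scale in the first step and -0.64 (-0.81 to -0.47) in the second, the lowest of the members in both. From bone marrow monocytes to APCs it was -0.68 (-0.84 to -0.52), also not called. A copy, Gm43738, shares 23.4% of its 50-base stretches and was listed at 0 reads in all 3 libraries.

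In the sterol arm, Sqle (ENSMUSG00000022351.14, chr15:59315077-59331192) encodes squalene epoxidase, the first oxygen-requiring step and a rate-limiting one. It had 392, 599 and 537 reads, or 7.23, 12.3 and 10.3 TPM, the lowest level of the 5 enzymes in every library. The estimate of the first step was above 2-fold, at a log2 fold change of 1.09, but its 98% interval of 0.88 to 1.31 reached below it, and Sqle was not called. A plain 2-fold change of the estimate would call it. The second step was at -0.31 (-0.51 to -0.12).

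Cyp51 (ENSMUSG00000001467.5, chr5:4081145-4104746) encodes the cytochrome P450 that demethylates lanosterol, after the ring closure of squalene. The 3 libraries held 791, 2288 and 1826 reads of it, or 10.2, 36.6 and 23.8 TPM. Both spinal cord populations were far above the bone marrow, and their 95% intervals, 35.2 to 38.2 TPM and 22.7 to 24.9 TPM, did not overlap each other or the 9.50 to 10.9 TPM of bone marrow monocytes. Cyp51 rose with a log2 fold change of 2.01 (1.88 to 2.15, 98% interval) in spinal cord monocytes and was called higher in APCs than in bone marrow monocytes at 1.53 (1.39 to 1.68). In the first step its log2 fold change was above that of 90.9% of active genes. Between the spinal cord populations it was -0.48 (-0.59 to -0.38), not called. Where each library was also given an assumed spread, beyond counting, of a coefficient of variation of 0.2 or 0.4, the first-step call of Cyp51 held at 0.2 and was lost at 0.4, and its call in APCs against bone marrow monocytes was lost at both. Of the 6 oligodendrocyte genes, 3 were called higher in the first step and 1 lower, beside 13.8% and 10.7% of all active genes. The sum of these 6 genes went from 102.9 to 77.3 TPM, and the part of oligodendrocytes in the Cyp51 reads was not tested.

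**Figure D2:**
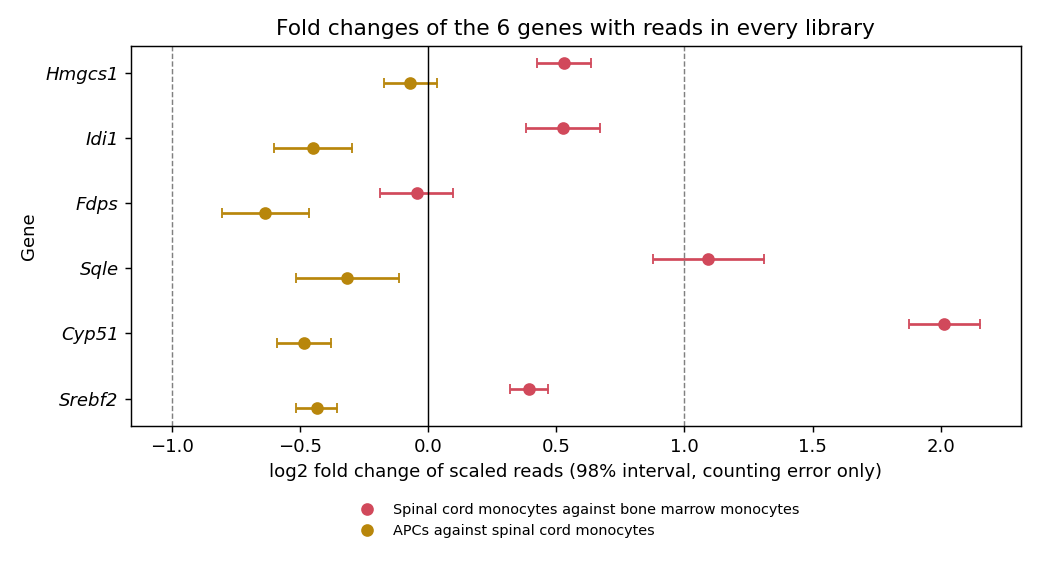
Log2 fold change of scaled reads (horizontal axis) for the 6 members with reads in every library, with 98% intervals of counting error and dashed lines at a 2-fold change. In the first step (red) the points run from -0.04 for Fdps to 2.01 for Cyp51, whose interval alone lies beyond 2-fold, and in the second (ochre) all 6 lie between -0.64 and -0.07.

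Srebf2 (ENSMUSG00000022463.8, chr15:82147181-82205379), which encodes the regulator of these enzymes, had 4170, 3922 and 3235 reads, or 46.6, 53.8 and 32.1 TPM. The log2 fold change of Srebf2 stood at 0.39 (0.32 to 0.47, 98% interval) in the first step and -0.43 (-0.51 to -0.36) in the second, neither called. Bone marrow monocytes and APCs differed by -0.04 (-0.12 to 0.04) on reads. The estimated effective length of Srebf2 was 4188, 3762 and 4827 bases in the 3 libraries, so on reads per length the second step was -0.66 and APCs against bone marrow monocytes -0.21. The transcript level does not show how much SREBP-2 was cleaved.

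Ch25h (ENSMUSG00000050370.5, chr19:34473778-34475164) differed most. None of the reads of marrow monocytes was assigned to it, against 169 in cord monocytes and 170 in APCs, or 0, 7.85 and 7.17 TPM. Set against a floor of 3 reads in the bone marrow library, on scaled reads, it was 78.7-fold higher in spinal cord monocytes and 71.0-fold higher in APCs. On the log2 scale these ratios are 6.30 and 6.15. Both differences were called, with 98% intervals of the fitted log2 fold change that start lower, at 5.67 and 5.52. On TPM, where the floor is 0.124, the ratios were 63.1-fold and 57.6-fold. The floor ratios take the 169 and 170 reads as counted, without their own counting error, so they are not lower limits. The 95% intervals of the spinal cord populations, 6.75 to 9.13 and 6.17 to 8.33 TPM, overlapped, and the log2 fold change between them was -0.15 (-0.51 to 0.22, 98% interval). Ch25h was the least abundant member in every library. Neither Ch25h nor Sqle shared a 50-base stretch with another gene. The summed TPM of the microglia, endothelial and T cell genes was higher in both spinal cord libraries than in the bone marrow one, and their part in the Ch25h reads was not tested.

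Ordered by TPM, bone marrow monocytes read Fdps, Srebf2, Hmgcs1, Idi1, Cyp51, Sqle and Ch25h, and no neighbours had overlapping 95% intervals. Spinal cord monocytes read Srebf2, Fdps, Hmgcs1, Cyp51, Idi1, Sqle and Ch25h, where the intervals of Srebf2 and Fdps and those of Hmgcs1 and Cyp51 overlapped. In APCs the order was Hmgcs1, Fdps, Srebf2, Cyp51, Idi1, Sqle and Ch25h, where Fdps overlapped Hmgcs1 and Srebf2, which did not overlap each other. APCs against bone marrow monocytes, which shares its libraries with the 2 steps, had 2 members called higher, Cyp51 and Ch25h, and none lower, beside 14.0% and 11.8% of 10190 active genes.

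Hmgcs1, Sqle, Idi1, Fdps and Cyp51 are 5 of 21 listed enzymes of cholesterol synthesis. In the first step 20 of the 21 were active, 3 rose and none fell, beside 13.8% and 10.7% of all active genes. The median log2 fold change was 0.21, with 12 positive and 8 negative. Cyp51 and Pmvk were among the 3. Pmvk, phosphomevalonate kinase, had 15.3, 32.2 and 46.2 TPM and rose by a log2 fold change of 1.38 (1.14 to 1.62, 98% interval). In the second step Pmvk was at 0.51, not called. The call of Pmvk was lost with total reads and with the assumed spread. The median of the enzyme list was 0.03 with scaling by total reads and -0.06 with TPM ratios, where the median of all genes moved by -0.18 and -0.26. The 5 member enzymes had a median of 0.53 in the first step, and the 15 active ones of the other 16 had one of 0.01. The choice of members with earlier results known bears on this contrast too.

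The other enzymes had first-step values on both sides of 0. In the sterol arm, Hsd17b7, at 2.28, 3.14 and 2.29 TPM, had a log2 fold change of 1.30 (0.96 to 1.66, 98% interval), or 0.70 on reads per length. Msmo1, the sterol methyl oxidase that acts after Cyp51, had 25.7, 40.4 and 28.8 TPM and 0.91 (0.77 to 1.06). The promoter of Msmo1 also held a TCACNCCA match. Neither Hsd17b7 nor Msmo1 was called. Ebp, the sterol isomerase, had the highest mean TPM of the arm, at 76.7, 45.6 and 40.8 TPM, with -0.47 (-0.60 to -0.35), and Dhcr7, which makes cholesterol from its dehydro precursor, was at -0.55 and then 0.68. In the mevalonate arm Acat2, the thiolase at its entry, was lowest, at -0.81 (-1.10 to -0.53). In the second step 19 of the 21 were active and 0 were called, beside 1.93% of all active genes called higher and 1.7% lower. The median of the 19 was -0.17, with 13 negative and 6 positive. Summed over the 21 enzymes, TPM was 437.3, 472.5 and 400.0 in the 3 populations.

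**Figure D3:**
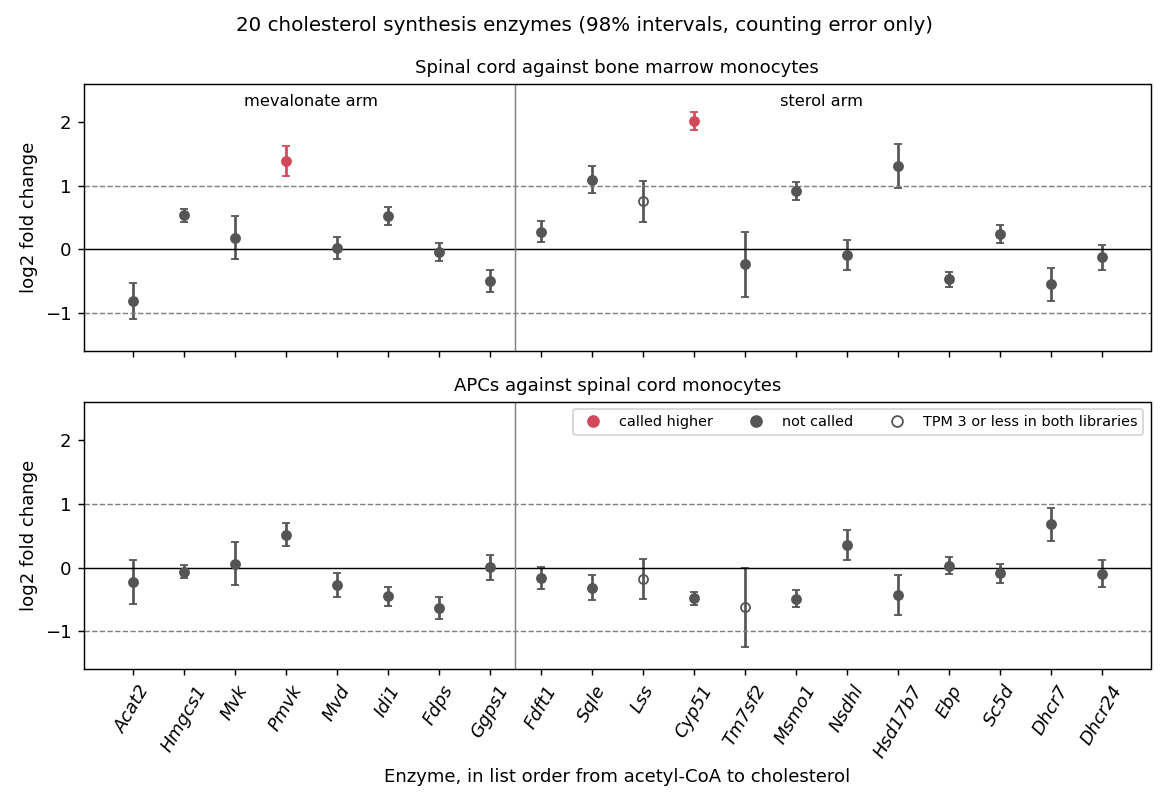
Log2 fold changes (vertical axis) of 20 of the cholesterol synthesis enzymes in pathway order with 98% intervals of counting error, for both steps, with dashed lines at a 2-fold change. Pmvk and Cyp51 (red) are called higher in spinal cord monocytes at 1.38 and 2.01, and no enzyme shown is called in the lower panel.

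Of the 7 listed genes of SREBP control, 1 rose in the first step and none fell, beside 13.8% and 10.7% of all active genes. The median was -0.22. Insig1, itself a sterol-responsive SREBP target that retains SCAP, had 1754, 5301 and 3165 reads, or 40.2, 142.8 and 62.0 TPM. It rose by a log2 fold change of 2.08 (1.99 to 2.17, 98% interval), close to the 2.01 of Cyp51, and was at -0.90 (-0.98 to -0.83) in the second step, not called on reads and called lower on reads per length at -1.12. The rise was not called with a spread of 0.4. Insig2, its paralog, was at -0.07 and -0.04. Scap, the sterol-sensing escort, was at -0.27 and 0.42, and Mbtps1, the protease that makes the first cut, at -0.86 and 0.20. Srebf1, whose products act more on fatty acid synthesis, had 40.0, 30.2 and 14.0 TPM and log2 fold changes of -0.22 and -0.41, or -1.03 per length in the second step. It was not called on reads and was called lower with TPM ratios. Srebf2, by comparison, was at 0.39 and -0.43.

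Among 8 genes of sterol uptake and transport, 7 were active. In the first step 1 was called higher and none lower, beside 13.8% and 10.7% of all active genes. The median was 0.13. In the second step 0 were called, beside 1.93% of all active genes called higher and 1.7% lower. Npc2, which hands cholesterol out of the lysosome, was the most abundant at 411.9, 595.3 and 415.2 TPM, and Soat1, which esterifies cholesterol, was at 315.2, 212.1 and 239.8 TPM, and neither of these was called.

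Beside Ch25h, the oxysterol list held Cyp7b1, Hsd3b7 and Gpr183. The enzyme of Cyp7b1 turns the Ch25h product into the ligand of the chemotactic receptor encoded by Gpr183. Cyp7b1 had 18, 10 and 50 reads and stayed under 3 TPM. Hsd3b7 had 27.8, 45.2 and 40.9 TPM and 0.96 (0.82 to 1.11, 98% interval) in the first step, not called. Gpr183 had 10.9, 10.7 and 15.4 TPM, with 0.01 and then 0.59. Among the other hydroxylases, Cyp39a1 fell from 24.7 to 1.51 TPM, by a log2 fold change of -3.73 (-4.20 to -3.31), and had 0.334 TPM in APCs. Cyp27a1 was at 41.0, 17.6 and 10.4 TPM, not called in either step and called lower in APCs than in bone marrow monocytes at -1.39.

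Of the 6 listed genes of LXR and efflux, 4 rose in the first step and none fell, beside 13.8% and 10.7% of all active genes. The median was 1.27. Abca1, a cholesterol exporter and LXR target, had 1.98, 48.8 and 70.5 TPM and rose by a log2 fold change of 4.87 (4.71 to 5.04, 98% interval). Nr1h3, which encodes LXR alpha, rose by 4.74 (3.99 to 5.64), from 17 reads to 338. Abcg1, another exporter, rose by 1.24 and Mylip, a ubiquitin ligase and LXR target, by 1.30, and these calls were lost with total reads, with TPM ratios and with an added spread between libraries. Nr1h2, which encodes LXR beta, was at 0.64 and Lpcat3 at 0.06, and neither was called. In the second step 0 of the 6 were called, beside 1.93% of all active genes called higher and 1.7% lower, and Abca1 was at 0.57.

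The fatty acid genes, which depend more on SREBP-1, had a median of -0.78 over 7 active genes of 10 in the first step. None had risen and 1 had fallen, beside 13.8% and 10.7% of all active genes. Elovl6, a fatty acid elongase, fell from 7.17 to 1.24 TPM, by a log2 fold change of -2.37 (-2.72 to -2.04, 98% interval). Acss2, an acetyl-CoA synthetase, was at -1.30 (-1.62 to -0.99), just short of a call, and Fasn, the fatty acid synthase, at -0.78. Acly, which supplies cytosolic acetyl-CoA to both pathways, was the most abundant, at 135.2, 165.0 and 103.9 TPM. Scd2, a desaturase, had 32.1, 32.4 and 41.7 TPM, and Scd1 had 2, 64 and 83 reads and stayed under 3 TPM. Fads1, a desaturase of polyunsaturated chains, was at 0.78 and then 1.07 (0.88 to 1.25), not called.

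For comparison, 10 of 10 interferon-stimulated genes rose in spinal cord monocytes, with a median of 3.32, beside 13.8% of all active genes called higher. Of these 10, 7 then fell in APCs, with a median of -1.32 over the 10, beside 1.7% of all active genes called lower. With the assumed spread, 0 of the 10 were called in the second step. Among them Cxcl10 was at 10.1, 1423 and 444.1 TPM, Isg15 at 25.6, 517.4 and 184.6, Rsad2 at 3.11, 79.3 and 29.8, and Mx1 at 28.3, 67.2 and 12.7. Ch25h rose in the first step as these genes did, and the part of interferon in its reads was not tested. In the second step its log2 fold change was -0.15 (-0.51 to 0.22, 98% interval), and those of the 10 genes ran from -1.73 to -0.70. Proliferation genes ran the other way in the first step, where 9 of 10 fell, with a median of -3.08, beside 10.7% of all active genes called lower. Among these proliferation genes, Top2a was at 189.7, 8.92 and 8.46 TPM, Rrm2 at 116.6, 5.72 and 6.17 and Mki67 at 92.9, 8.59 and 12.6. Mcm2 was at 36.2, 4.97 and 7.82 TPM and Pcna, not called, at 288.4, 194.8 and 148.1. Their part in the sterol gene values was not tested.

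**Figure D4:**
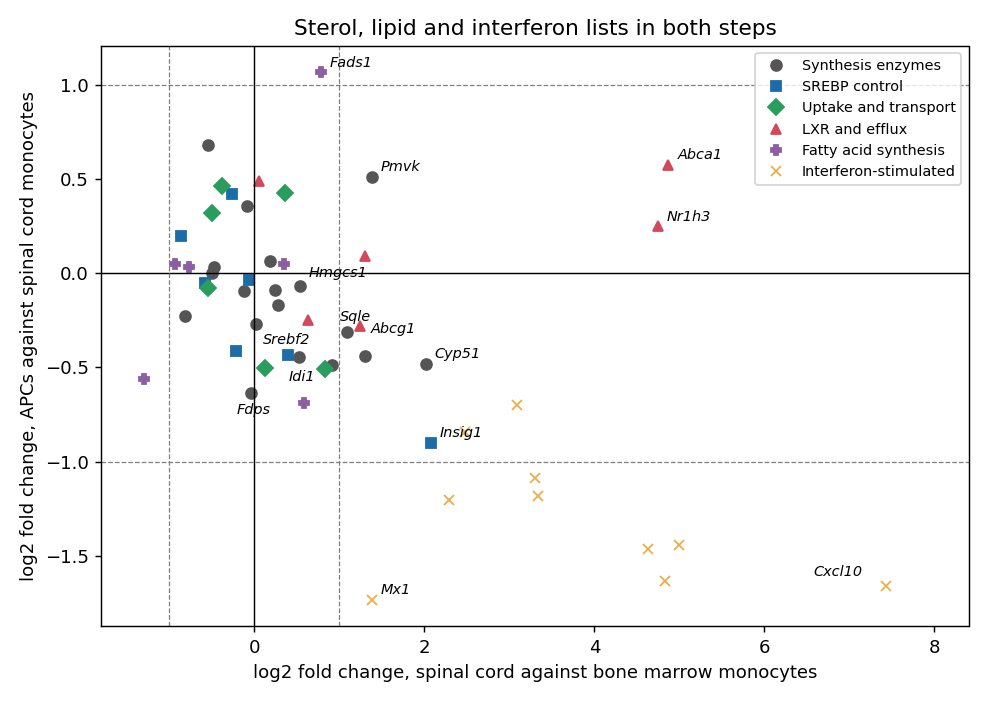
Log2 fold change in the first step (horizontal axis) against the second (vertical axis) for listed genes active in both, marked by list, with dashed lines at a 2-fold change and 1 library per population. Cyp51 and Insig1 lie to the right and below 0, Abca1 and Nr1h3 to the far right and above 0, and the interferon-stimulated genes lowest, from -1.73 to -0.70 on the vertical axis.

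The likeness of 2 patterns was measured as the distance between their pairs of log2 fold changes, over 9499 genes active in both steps and 3 libraries. Among the members, Idi1 and Srebf2 were the closest pair, at 0.13, and Hmgcs1 was 0.38 and 0.39 from them. Cyp51 was 0.94 from Sqle, 1.49 from Idi1, 1.54 from Hmgcs1, 1.62 from Srebf2 and 2.06 from Fdps. The nearest genes to Cyp51 were Snx18, Btg2 and Ninj1, and 32 genes lay within 0.2 of it. Around Srebf2 there were 250, the nearest being Adar and Slc52a3, and around Idi1 205, with Cnot7, Sik3 and Cdk6 first. Hmgcs1 had 296, with Slc45a4, Cdiptos and Rita1 first, Fdps 150, with Lnpep, C1rl and Vcpip1, and Sqle 98, with Kpna4, Vezt and Eif4a2. Ch25h had 0 within 0.2, and its nearest were Egr2, Ccl12 and Rasgef1b, which had 0.519, 0.320 and 0.703 TPM in marrow monocytes and 168.7, 117.9 and 218.5 TPM in cord monocytes. The fitted fold of Ch25h depends on the 1 read added to each count, so its place in this order does too.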

How the data were processed

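RNA of the 3 sorted populations, 1 pooled library each, was measured by RNA-Seq of 50-base paired reads on mm10. The authors estimated expression with SALMON (version 0.14.1 in the submitters' processing notes) on GENCODE vM22, summing over the transcripts of a gene. The deposited TPM values are divided by effective length and scaled per library, and the deposited estimated counts of reads are not normalized. Library names and gene numbers show that the APC values rest on another transcript set.

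The deposited estimated counts were rounded, with 33280643 reads for marrow monocytes, 27283795 for cord monocytes and 28209589 for APCs. Samples were grouped by title, since the source label of the APC sample names the bone marrow. Fold changes followed the definition of GFold, computed anew as a gamma posterior of reads plus 1 with size factors of 1.21, 0.864 and 0.963 over 22238 genes. Intervals run from percentile 1 to 99, and the calls were tested on simulated data. Alternatives were TPM over 4 or no threshold, total reads, TMM factors, reads per effective length, an added spread between libraries (coefficient of variation 0.2 or 0.4), a plain 2-fold change, and TPM ratios with a pseudocount of 1 or 0.1. The members and lists were chosen with earlier results of these data known. Genes named are the members, set regulators and targets, the 2 most changed and 2 most abundant active genes of each list, and the 3 genes most like each member. Results on some of these genes are not reported here. Mylip and Acat2 were named after their values were seen. Annotation came from GENCODE M21, in GRCm38 coordinates. Versions were scipy 1.17.1, pandas 2.3.3, numpy 2.4.6 and matplotlib 3.10.9 under Python 3.11.15, with edgeR 4.0.16 under R 4.3.3 for TMM factors only.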

Additional observations from a re-analysis of the deposited data

How the results depend on the processing

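Of the 21 fold changes of the members, every one kept its direction where called, and its call, under 7 of the 10 alternatives. With an added spread of a coefficient of variation of 0.4, the members called higher in spinal cord monocytes than in bone marrow monocytes went from 2 to 1, Ch25h, and with 0.2 or 0.4 those called higher in APCs than in bone marrow monocytes also went to 1. A plain 2-fold change added Sqle in the first step. The spread between mice is unknown with 1 library each. The signs of Hmgcs1 in the second step (-0.08 to 0.002) and of Idi1 in APCs against bone marrow monocytes (-0.22 to 0.11), neither called, depended on the scaling. No replicate could be left out in turn, with 1 library per population. No paired analysis was possible because each population has a single library, and pooled mice cannot be matched.

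Over all genes in the first step, those called higher were 1386, and 2623 with no threshold, 918 with a spread of 0.2 and 630 with 0.4. Those called lower were 1073, and 454 and 225 with these spreads and 1890 and 2137 with TPM ratios at a pseudocount of 1 and 0.1. In the second step, those higher were 188, and 385 with no threshold, 85 and 43 with added spread, 326 with a plain 2-fold change and 351 with TPM ratios at 0.1. Those lower were 165, and 292 with no threshold, 320 per length, 35 and 14 with added spread, 302 with a plain change, and 528 and 617 with TPM ratios. For APCs against bone marrow monocytes, those higher were 1426, and 2870 with no threshold and 725 with a spread of 0.4, and those lower were 1199, and 503 and 231 with added spread and 2433 and 2682 with TPM ratios.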
